A study of Mus musculus with 6 samples.

Results

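Gsdmd and Atg3 are the transcripts of a cell death effector and of an autophagy enzyme that were measured, alongside circular RNAs, on arrays of mouse small intestine after ischaemia/reperfusion (I/R), in which blood flow to the gut is stopped and then restored. The members were the probes for linear transcripts whose transcript accession belongs to Gsdmd or Atg3 in RefSeq, which gave 1 probe each, A_51_P172231 for Gsdmd and A_51_P143855 for Atg3. These are 2 of the 50 linear transcript probes on the array and 2 of its 14286 circRNA and linear transcript probes, and each was printed as 10 spots.

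The study compared 3 sham-operated samples (replicates 1, 2 and 3) with 3 I/R samples (replicates 6, 7 and 9), all from small intestine of 8-week-old C57BL/6 mice. Values per array are given in the order of these replicate numbers. The I/R labels carry 4 h, and the labels do not say what that time counts from or describe the operation further. Nor do they say whether the samples came from different mice; a p-value here therefore reflects variation among samples that may be technical. In both groups the RNA was treated, ahead of labelling, with RNase R, which breaks down RNA with free ends and spares circles. The signals of Gsdmd and Atg3 are therefore those of linear transcripts after digestion, and how they relate to the levels in the tissue was not tested.

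Gsdmd encodes gasdermin D, which inflammatory caspases cleave during pyroptosis, a lytic form of cell death that follows inflammasome activation. Its freed amino-terminal part forms pores in the plasma membrane, through which mature interleukins leave the cell. Atg3 encodes the conjugating enzyme of autophagy that, after ATG7 has activated them, attaches proteins of the LC3 family to phosphatidylethanolamine in the growing autophagosome membrane. In the intestinal epithelium pyroptosis is known as a response to invading bacteria, and autophagy is known for its part in Paneth cell function and in the turnover of damaged organelles.

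For neither transcript did the difference between I/R and sham pass the test. Gsdmd was bright on every array and was on average 0.42 lower in I/R on the log2 scale, while Atg3 lay near background and was on average 0.83 higher. Across all 9542 probes fitted together limma called none at an adjusted p under 0.05 (0%), and 8.47% had an unadjusted p under 0.05, among which neither Gsdmd nor Atg3 was found.

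The Gsdmd probe was read well above background at all 10 spots on each of the 6 arrays, and none of its spots was saturated. Its mean processed signal, which is intensity after background subtraction and before any scaling between arrays, was 350.3 on sham 1, 299.1 on sham 2 and 252.5 on sham 3. On the I/R arrays it was 344.8 on replicate 6, 262.9 on replicate 7 and 256.7 on replicate 9. Sham 1 and I/R 6 were the brightest, sham 3 and I/R 9 the dimmest, and the groups overlapped throughout. The unscaled sham mean was 300.6 ± 48.9 and the I/R mean 288.1 ± 49.2 (SD over 3 arrays each), so that I/R was 0.958 times sham (exact two-sided permutation test, p = 0.8; with 3 arrays against 3 the smallest possible p is 0.1).

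The comparison between groups was made on the log2 signal minus the log2 of each array's 75th percentile, which aligns the arrays at that percentile only. That percentile ran from 57.6 on sham 1 to 82.9 on sham 2 in the sham group, and from 79.5 on I/R 6 to 108.2 on I/R 7 in the I/R group. On this scale Gsdmd was at 2.60, 1.80 and 1.84 across the sham arrays, and at 2.12, 1.28 and 1.59 across the I/R arrays. I/R 6 lay above sham 2 and sham 3, while I/R 7 and I/R 9 lay below every sham array. The sham mean was 2.08 ± 0.45 and the I/R mean 1.66 ± 0.42 (SD over 3 arrays each). The difference of -0.42 had an SE of 0.34 and a 95% interval of -1.22 to 0.38, and it did not pass the threshold (adjusted p = 0.732 in limma). As a ratio of I/R to sham this is 0.746, with an interval of 0.429 to 1.30, which includes both lower and higher levels in I/R.

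The size of the Gsdmd difference followed the scaling. The I/R arrays were brighter as a whole (75th percentile 1.30-fold higher on average, exact two-sided permutation p = 0.2). Without scaling the difference was -0.05, with quantile normalization -0.55, and with the percentile taken over the probes detected on all arrays -0.61. The median difference of all fitted probes moved with these settings, from 0.15 under the 75th percentile to 0.52 without scaling, 0.04 with quantile normalization and -0.04 with the percentile over detected probes. Relative to that median Gsdmd differed by -0.57 under the 75th percentile, by -0.59 with quantile normalization and by -0.57 under the other 2 settings. No scaling and both percentile settings move all probes of an array equally, so this relative value could hardly differ among them. With normexp background correction the difference was -0.19 after scaling to the 75th percentile and -0.44 after quantile normalization, or -0.13 and -0.45 relative to the median, and 25.6% and 2.65% of all fitted probes were lower. Under the 75th percentile without normexp 10.5% of all fitted probes had a difference as low as that of Gsdmd or lower. Among the 651 circRNA probes within 0.5 of its mean log2 level the share was 8.76%.

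**Figure D1:**
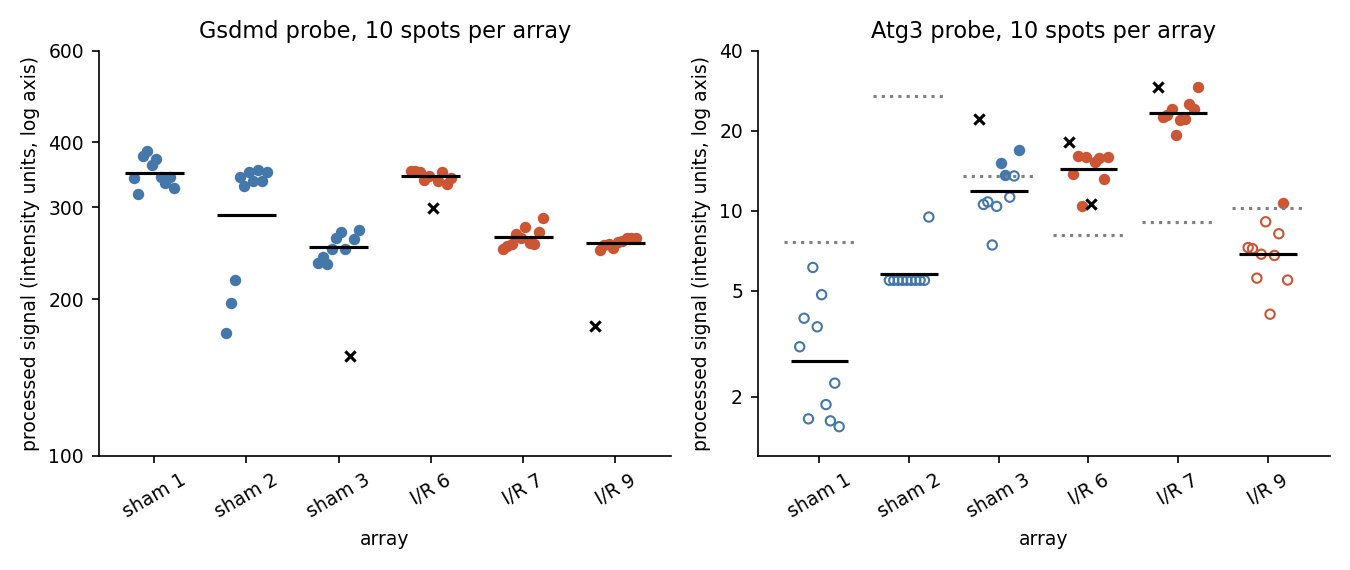
Processed signal (intensity units, log axis) of every spot of the Gsdmd probe (left) and the Atg3 probe (right) on each array, sham in blue and I/R in orange. Filled points were well above background, open points were not, crosses are spots marked as outliers, black bars are means of the log values, and dotted lines give the lowest signal among spots well above background on that array. Gsdmd is well above background throughout, whereas no Atg3 spot reaches that call on sham 1 or sham 2.

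The 10 spots of the Gsdmd probe agreed closely on most arrays. Their coefficient of variation was 6.35%, 24.3% and 5.57% across the sham arrays, and 2.20%, 4.37% and 1.99% across the I/R arrays. Spots of a probe share 1 hybridised sample, so they measure the error of reading the array and do not count as replicates. The standard error of the spot mean was at most 0.13 on the log2 scale, while the SD between arrays of a group was 0.44. The spread between arrays was therefore larger than the reading error for Gsdmd. At each of the 10 spot positions the mean was lower in I/R than in sham, by -0.77 to -0.11. The positions share their samples and scaling, except that a spot left out as an outlier removes its array from that position. Both ends of the range come from such positions, without I/R 6 at -0.77 and without I/R 9 at -0.11.

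Sham 2 held the widest spread of Gsdmd spots, and the spread followed the position on the array. The 3 spots in the first 48 of the 192 rows read 172.4 to 217.7, and the other 7 read 329.2 to 353.4. The upper spots were thus at 0.567 times the others, where on the other arrays the ratio ran from 0.910 on sham 3 to 1.03 on I/R 6. The 24 other linear transcript probes that were detected on every array and had spots in both areas did not share the size of this gap on sham 2: their median difference between the areas was -0.06 on the log2 scale, with a range of -0.65 to 0.18, against -0.82 for Gsdmd. They did lean the same way, with 19 of the 24 lower in the upper rows. On sham 3 it was also 19 of 24, with 1 probe at -0.85. On the other arrays the count ran from 9 of 22 on I/R 9 to 16 of 24 on I/R 7. Sham 2 also had the largest spatial background fit of the extraction software (a root mean square of 8.17, against 1.92 to 3.90 on the other arrays). The root mean square of the software's multiplicative detrending fit was 0 on sham 2 and sham 3. On sham 1 and the I/R arrays it was 0.0306 to 0.0544. Whether either fit bears on the gap, or on the I/R minus sham differences of Gsdmd and Atg3, was not tested. With those first 48 rows left out on every array, a split chosen after seeing the data, the Gsdmd difference was -0.52, and with the median of the spots it was -0.49 (adjusted p = 0.661 and 0.683 in limma).

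The file headers give a scan date, and arrays that share a date are called a scan session here. Gsdmd differed more between sessions than between groups. Sham 1 and I/R 6 were scanned in session 1 and the other 4 arrays in session 2. Unscaled Gsdmd signal was at least 344.8 on both arrays of session 1 and at most 299.1 in session 2, and on the scaled log2 level session 1 was 0.73 higher. Within session 1 the I/R array was 0.49 below the sham array, and within session 2 the I/R mean was 0.39 below the sham mean. With session as a block the difference stayed at -0.42 and its SE was 0.22 in place of 0.34, and it again did not pass the threshold (adjusted p = 0.440 in limma). Actb, the cytoplasmic beta-actin and a common reference transcript, ran the other way between sessions. Its signal was 18.9 on sham 1 and 15.5 on I/R 6, against 37.4 to 75.2 in session 2, so its scaled level was 1.25 lower in session 1. Chgb, a granule protein of enteroendocrine cells, was also 1.25 lower in session 1, with signals of 35.9 and 44.3 against 105.3 to 150.4. Only the scan date was taken from the headers to form the sessions, and what else differed between the sessions was not tested.

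**Figure D2:**
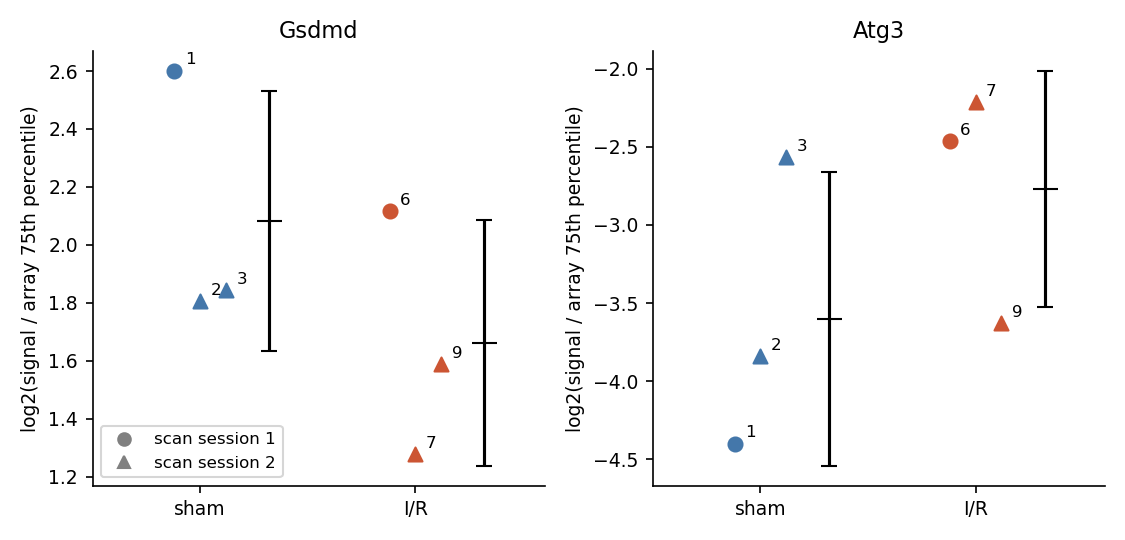
Scaled level, log2 of the signal over the array's 75th percentile, of Gsdmd (left) and Atg3 (right) on each array. Numbers are replicate numbers, circles are scan session 1, triangles are scan session 2, and black bars give the group mean ± SD (n = 3 arrays). For Gsdmd the circle lies above both triangles in each group, and for both transcripts the groups overlap.

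Atg3 lay near the detection limit. Of its 10 spots, 0, 0 and 4 were well above background across the sham arrays, and 10, 10 and 1 across the I/R arrays. With at least 5 of 10 spots required, the probe thus passed this call on none of the 3 sham arrays and on 2 of the 3 I/R arrays. Of all 14286 probes, 9039, 5872 and 8049 passed it across the sham arrays, and 9874, 11152 and 9316 across the I/R arrays. More probes thus passed on each I/R array than on any sham array, and the split is not particular to Atg3. Under the looser call of a signal that is positive and significant over background the Atg3 spot counts were 7, 1 and 10 in sham. They were 10 on each I/R array. The calls differed most on I/R 9, with 1 spot under the stricter and 10 under the looser one.

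The mean processed signal of Atg3 was 3.06 on sham 1, 5.88 on sham 2 and 12.2 on sham 3. On the I/R arrays it was 14.6 on replicate 6, 23.5 on replicate 7 and 7.13 on replicate 9. Both arrays on which Atg3 was well above background were the highest, but I/R 9 lay below sham 3, so the groups overlapped. On sham 2 the software had set 9 of the 10 spots to the lowest signal of that array, 5.48, which makes the value there a floor and not a measured level. The extraction software's own error was 1.64, 5.40 and 2.99 per spot across the sham arrays, and 2.25, 3.13 and 2.35 across the I/R arrays. On sham 2 that error was nearly as large as the signal.

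On the scaled log2 level Atg3 was at -4.40, -3.84 and -2.56 across the sham arrays, and at -2.46, -2.21 and -3.63 across the I/R arrays. The sham mean was -3.60 ± 0.94 and the I/R mean -2.77 ± 0.76 (SD over 3 arrays each). The difference of 0.83 had an SE of 0.56 and a 95% interval of -0.47 to 2.13, and it did not pass the threshold (adjusted p = 0.677 in limma). No fold is given for Atg3, because the I/R mean of -2.77 lay under -2.30, the mean detection limit of the sham arrays (the higher of the lowest signal well above background and the probe's own signal, per array). That limit was itself uneven between arrays, at 7.61, 26.9 and 13.6 in unscaled signal across the sham arrays, and 8.11, 9.09 and 10.3 across the I/R arrays.

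The raw signal before background subtraction showed how narrow the Atg3 measurement was. The mean raw median of its spots was 56.5, 74.95 and 75.2 across the sham arrays, and 75, 79.8 and 69.8 across the I/R arrays. The 77 negative control spots of the same arrays averaged 50.2, 66.2 and 59.4 in sham and 55.1, 54.1 and 56.0 in I/R. Atg3 thus stood 6.27, 8.72 and 15.8 units above the negative controls in sham and 19.9, 25.7 and 13.8 in I/R. In SDs of the negative control spots this was 2.19, 0.781 and 3.04 in sham and 5.17, 6.82 and 2.37 in I/R. Sham 3 and I/R 9 were close to each other on this measure and again overlapped in order (exact two-sided permutation test on the excess over negative controls, p = 0.2). Gsdmd by the same measure stood 255.6 to 350.1 units above the negative controls on the 6 arrays, with no group apart (p = 0.9 in the exact permutation test).

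**Figure D3:**
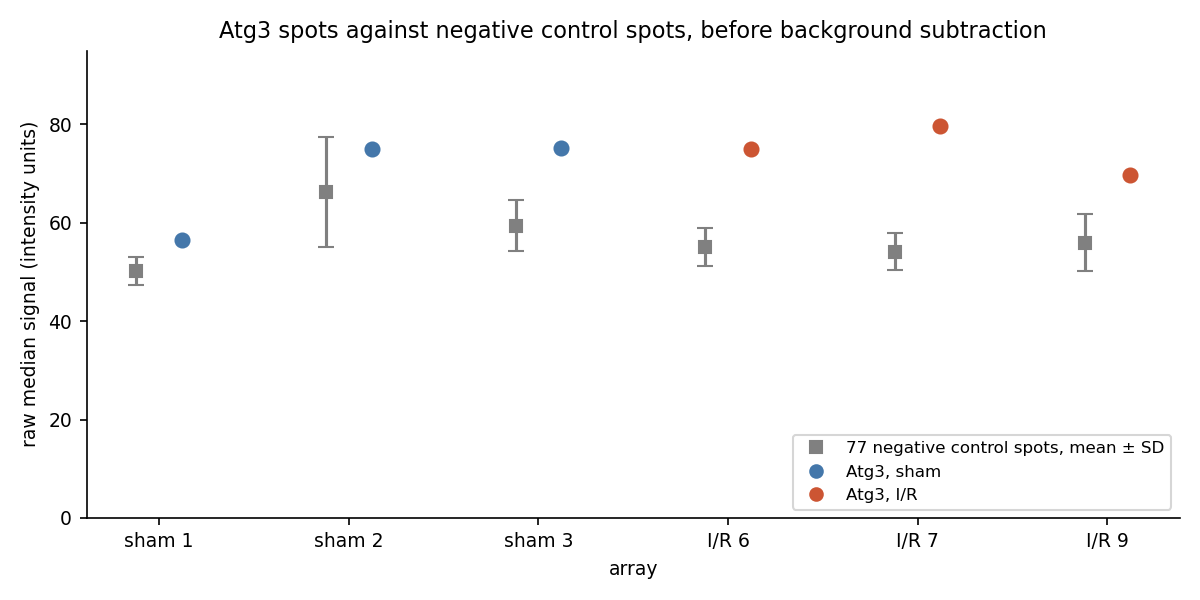
Raw median signal before background subtraction (intensity units) of the Atg3 spots, as their mean per array, beside the mean ± SD of the 77 negative control spots of the same array. Atg3 lies within 1 SD of the negative controls on sham 2 and more than 5 SDs above them on I/R 6 and I/R 7.

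The spots of the Atg3 probe were more scattered than those of Gsdmd, with coefficients of variation from 11.6% on I/R 7 to 51.3% on sham 1. The standard error of the spot mean was at most 0.23 on the log2 scale, against an SD between arrays of a group of 0.85. At 9 of the 10 spot positions the mean was higher in I/R, with differences from -0.11 to 1.30. The positions do not all hold the same arrays, because outlier spots were left out. The position that was lower lacks I/R 6, and another rests on I/R 9 alone in the I/R group.

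The Atg3 difference was uneven across scan sessions and arrays. Within session 1, I/R 6 was 1.94 above sham 1, and within session 2 the I/R mean was 0.28 above the sham mean. Without sham 1 the difference was 0.43, and without sham 3 it was 1.35, with a 95% interval of 0.20 to 2.50. Without I/R 9 it was 1.26. None of these passed the threshold (adjusted p = 0.732, 0.330 and 0.672 in limma). With array weights the difference was 1.29 and the 95% interval, 0.12 to 2.46, lay above 0, but the adjusted p was 0.326. With normexp background correction, whose offset of 50 exceeds the processed signal of Atg3 on every array, the difference was -0.10 after scaling to the 75th percentile and 0.10 after quantile normalization, so its direction turned under normexp with the 75th percentile and not under normexp with quantile normalization. These normexp values also start from the raw median spot signal.

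Gsdmd and Atg3 were also compared with each other within each array, since the difference of 2 probes on 1 array does not depend on how that array is scaled. Gsdmd minus Atg3 was 7.001, 5.64 and 4.41 across the sham arrays, and 4.58, 3.49 and 5.22 across the I/R arrays. These values show only whether the transcripts changed unequally, and not which of them is more abundant. The sham mean was 5.68 ± 1.30 and the I/R mean 4.43 ± 0.87 (SD, n = 3). The change was -1.26 and the groups overlapped, with I/R 9 above sham 3 (exact two-sided permutation p = 0.3). It was -2.42 in session 1 and -0.67 in session 2, and it rests on Atg3 values that are near background. With normexp and scaling to the 75th percentile it was -0.09 (exact two-sided permutation p = 0.6). With normexp and quantile normalization it was -0.55 (exact two-sided permutation p = 0.1, the smallest possible).

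Among the 50 linear transcript probes, of which 44 could be named through RefSeq, Atg3 ranked 15th and Gsdmd 19th by unadjusted p. By size the Atg3 difference was among the 5 highest of the 50, and 7.23% of all fitted probes had a difference as high or higher. Of the 50 probes, 33 were higher and 17 lower in I/R, with a median difference of 0.23, and limma called none of them (smallest adjusted p 0.461, 8 with an unadjusted p under 0.05). Of the 27 that were well above background on all arrays, 20 were higher and 7 lower, with a median of 0.26, and 3 of these 27, Gsdmd included, were as low as Gsdmd or lower. This balance moved with the scaling, to 14 higher and 13 lower with the percentile over detected probes. With each array's median over these 27 probes subtracted, a setting chosen after seeing the data, Gsdmd differed by -0.29 and Atg3 by 0.96 (adjusted p = 0.882 and 0.774 in limma). That median was the value of the E2f1 probe on every array but sham 1, where it was that of Anxa8. The setting is therefore close to the use of a single reference transcript. Against Actb, which itself differed by -0.66 (SE 0.57, adjusted p = 0.746 in limma), Gsdmd was 4.21, 2.75 and 1.74 higher across the sham arrays, and 4.47, 2.81 and 2.13 higher across the I/R arrays, as differences of log2 signal within an array. The session 1 arrays again held the highest values of each group. Relative to Actb, a setting chosen after seeing the data, the direction for Gsdmd turned. The mean was 2.90 ± 1.24 in sham and 3.14 ± 1.21 in I/R (SD over 3 arrays each). The difference of 0.24 did not pass the threshold (SE 0.88, adjusted p = 0.862 in limma). In this setting limma gave Gsdmd and Atg3 the same SE, so 0.88 does not measure the spread of Gsdmd alone.

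**Figure D4:**
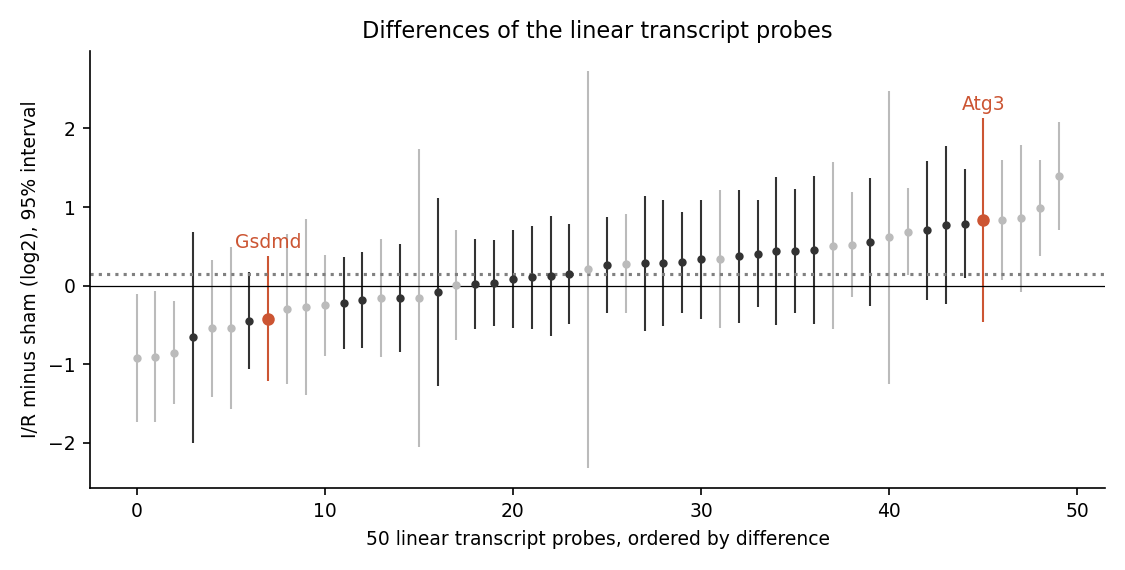
I/R minus sham difference (log2 scaled level) with its 95% interval for each of the 50 linear transcript probes, ordered by size. Gsdmd and Atg3 are in orange, other probes well above background on all 6 arrays in black and the rest in grey, and the dotted line is the median of all fitted probes at 0.15. The intervals of both Gsdmd and Atg3 include 0.

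Few other genes of the pathways were measured as linear transcripts. Of 21 pyroptosis and inflammasome genes only Gsdmd had a probe. None of 35 apoptosis genes and none of 16 necroptosis and ferroptosis genes had one. Of 52 autophagy genes Atg3 and Rab5a did, and no list had a member past the threshold in either direction. Rab5a, a GTPase of early endosomes that also acts in early autophagosome formation, was at -3.20, -3.31 and -3.22 across the sham arrays, and at -2.40, -2.47 and -2.79 across the I/R arrays. Every I/R array lay above every sham array, by a mean difference of 0.69 (SE 0.24, adjusted p = 0.536 in limma). Such a separation with I/R higher was common, at 8.81% of all fitted probes and 5 of the 50 linear transcript probes. Of its 10 spots, 3, 0 and 2 were well above background across the sham arrays, against 10, 10 and 6 across the I/R arrays. Its sham values are thus at the detection limit like those of Atg3. Among all probes, too, more were well above background on each I/R array than on any sham array. Its difference was 0.80 in session 1 and 0.63 in session 2, and with normexp and the 75th percentile it was -0.11.

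Cell composition could not be read from the linear transcripts. Of 58 markers in 11 lists, which covered enterocytes, goblet, Paneth, enteroendocrine, stem and cycling cells, neutrophils, macrophages, T cells, B and plasma cells, endothelium and smooth muscle, only Chgb had a probe. Chgb was well above background on all 6 arrays and differed by -0.08 (SE 0.51, adjusted p = 0.975 in limma). In such bulk samples fewer cells of a type and less RNA per cell cannot be told apart.

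The transcripts whose scaled levels ran most like those of the members over the 6 arrays were found among the named linear transcripts well above background on all arrays. For Gsdmd, out of 23 candidates, these were Pex11a, a peroxisomal membrane protein (Pearson's r = 0.64), Hyal3, a hyaluronidase (0.53), and Il2, the T cell cytokine (0.43). The median r of the candidates was 0.17, and Chgb was the least alike at -0.67. For Atg3, out of 24 candidates, they were Ppara, the nuclear receptor of fatty acid oxidation (0.66), Gpi1, a glycolytic isomerase (0.54), and Anxa8, an annexin (0.36), with a median of -0.08 and E2f1 lowest at -0.76. All points share 6 arrays and their scaling, and these values are descriptions of those arrays. Atg3 itself was well above background on only 2 of them, and its sham 2 value is a floor, which limits its r values. After subtraction of the linear transcript median the 3 transcripts most like Atg3 were Taf1a (0.88), Ppara (0.82) and Gpi1 (0.78). Taf1a, which had r = -0.23 with Atg3 before, took the place of Anxa8. For Gsdmd they were Pex11a (0.74), Hyal3 (0.66) and Olfr166 (0.56), the last in place of Il2. The subtracted median was the value of E2f1 itself on every array but sham 1, where it was that of Anxa8. The r values after subtraction thus share the subtraction of E2f1, the transcript least like Atg3 before. How far this raised them was not tested. The likenesses depend on the scaling.

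**Figure D5:**
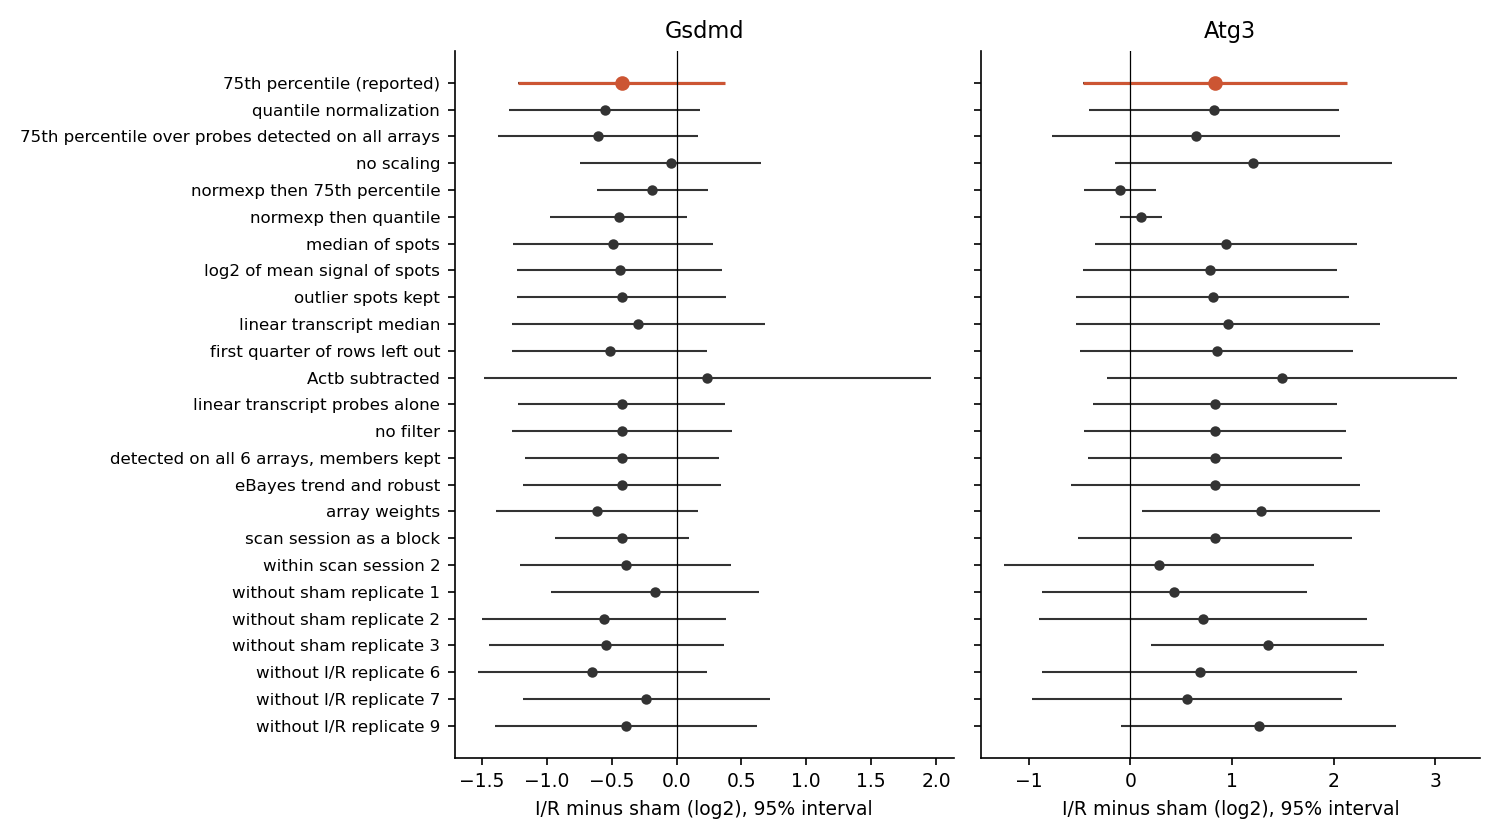
I/R minus sham difference (log2) of Gsdmd (left) and Atg3 (right) with its 95% interval under each processing choice; the reported setting is in orange. Gsdmd lies below 0 under each choice shown except the subtraction of Actb, with an interval that includes 0 throughout, and Atg3 lies above 0 except with normexp scaled to the 75th percentile.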

How the data were processed

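Per the file headers, the authors' deposited 1-colour (Cy3) arrays were read out with version 11.0.1.1 of Agilent Feature Extraction, and their processed intensity has background subtracted but no scaling from array to array. Agilent Feature Extraction and limma are named, without roles, in the submitters' processing notes. Spots marked as outliers were left out (7 of the 120 spots of the members), the remaining spots of a probe were averaged as log2 values, and each array's 75th percentile over 15176 non-control spots was subtracted. No pseudocount was used.

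I/R and sham were compared with limma 3.58.1 in R 4.3.3 (lmFit and eBayes, two-sided) over 9492 circRNA probes well above background on at least 3 arrays and all 50 linear transcript probes, with Benjamini-Hochberg adjustment over all 9542 and a threshold of 0.05. The fit was also run on simulated data with independent noise per probe, without scan sessions or floor values. That run does not bear on differences near background. A 10-spot probe counted as well above background with at least 5 spots. Of the 50 linear probes 44 were named through RefSeq transcripts of GRCm38.p6. Normexp used the median spot signal. The number of arrays limits the precision.

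Named genes are the members, genes of the fixed lists, Actb and the 3 transcripts most like each member. The least alike transcript, and the most alike ones after centring, were added after their values were seen. The members and lists were chosen with earlier results of these data known.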

Additional observations from a re-analysis of the deposited data

How the results depend on the processing

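Of 24 alternatives, 5 alter only the probes fitted or the model and cannot move a difference. Among the other 19 Gsdmd was positive when Actb was subtracted, at 0.24, and otherwise negative, from -0.65 to -0.05. Atg3 was -0.10 with normexp scaled to the 75th percentile and otherwise positive, up to 1.49 with Actb subtracted. Subtraction of Actb or of the linear transcript median and the omission of rows were chosen after seeing the data. No alternative brought either past the threshold (adjusted p from 0.440 to 0.973 for Gsdmd and from 0.272 to 0.973 for Atg3 in limma). Leaving out single arrays moved Gsdmd from -0.65 (without I/R 6) to -0.16 (without sham 1), and it was -0.23 without I/R 7. The contrast of Gsdmd with Atg3 ran from -1.89 to -0.60 without single arrays. Its exact permutation p cannot fall under 0.1 in this design, so this test could not have shown a smaller one. It was at 0.1 with normexp and quantile normalization. Limma called 0 of the linear transcript probes under every alternative, with a smallest adjusted p of 0.0796 when these 50 were fitted alone. The deposited value table was not used as an alternative, since each of its rows used here is a circRNA probe. No paired analysis was possible because the groups share no replicate numbers. Atg3 is limited by its signal over background, and the number of arrays limits both.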
